A study of Mus musculus with 40 samples.

Results

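This account concerns 10 genes that encode regulators of early-born retinal cell types: Crx, Thrb, Rxrg, Prdm1, Neurod1, Neurod4, Onecut1, Onecut2, Ptf1a and Foxn4. They were chosen by name as factors of photoreceptor, horizontal and amacrine precursors, not by a cut-off on their values but with earlier results of these data known, and they were represented by 11 of the 25697 probes of the array (Prdm1 had 2 probes). The RNA came from embryos of the mouse line Aey69, a dominant small-eye mutant induced with the mutagen N-ethyl-N-nitrosourea on the C3HeB/FeJ strain, which carries a mutation in the histone H3 gene Hist2h3c1, and from wild-type control embryos of the same strain. The mutant samples are labelled Aey69 mutant without a statement of zygosity, and no treatment was given to either genotype. Whole embryos were taken at E9.5 (4 mutant and 3 control samples), heads at E10.5 and E11.5 (4 and 4 for either age), the eye region at E12.5 (4 and 3) and the eye at E13.5 (3 and 3), giving 36 samples in 10 groups. Because a single mutant line was used and the tissue taken changed with age, effects of other variants fixed in the line cannot be told apart from those of the histone mutation, and age cannot be told apart from tissue at the steps to E12.5 and to E13.5. For the 3 control samples at E13.5 the age and title labels say E13.5 whereas the source label says E12.5, and the former were followed.

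Retinal neurons arise from a common pool of progenitors in an overlapping order. Foxn4, a forkhead factor of progenitors, acts upstream of Ptf1a in the formation of horizontal and amacrine cells, and Onecut1 and Onecut2 are needed for horizontal cells and take part in early cone development. Crx is the homeodomain factor of committed photoreceptor precursors, Thrb and Rxrg encode nuclear receptors that act in cone patterning, Prdm1 is a repressor that keeps photoreceptor precursors from becoming bipolar cells, and Neurod1 and Neurod4 are basic helix-loop-helix factors of photoreceptor and amacrine differentiation. Most of these genes are not specific for the retina: Onecut2, Neurod1, Neurod4, Ptf1a and Foxn4 are also known from the developing brain and spinal cord, and Ptf1a, Neurod1 and the Onecut genes from the pancreas or liver.

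Signals are given as log2 of the normalized probe signal, and a probe counted as detected on an array at a detection p-value under 0.05. Between 44.6% and 54.9% of all probes were detected per array, and the lowest detected signal of an array lay between 4.98 and 5.46. Rax, the eye-field homeobox gene, was detected on 0 of the 7 whole-embryo arrays, on 1 of the 8 head arrays at E10.5 and on 0 of 8 at E11.5. Other genes of the retinal progenitor list, which are not specific for the eye, were present in these samples: Lhx2, a homeobox gene of the eye field and the forebrain, was detected on all 16 head arrays, Six3 on 6 of the 8 at E11.5, and 7 to 11 of the 16 listed genes passed detection in each of these groups. At E13.5 Rax was detected on all 6 arrays, at a mean of 7.12 in controls and 6.21 in mutants, and Atoh7, which starts ganglion cell formation, at 8.22 and 7.64. The eye region at E12.5 had a mean Rax signal of 4.96 in controls and 5.26 in mutants, near the lowest detected signal, and it carried high signals of Lhx1 (8.96 and 9.08), a marker of horizontal cells that is also widespread in the brain. At E13.5 Lhx1 was detected on 1 of 6 arrays. Among the E12.5 controls, sample 2 stood apart, with a mean correlation of 0.891 with the other controls of its stage against 0.937 and 0.944 for those, and 47.6% of its probes were detected against 54.0% and 54.4%, so the member results at E12.5 that it moved are also given without it. Samples are numbered as in the deposited signal columns. In such bulk RNA, fewer cells of a type and less RNA per cell cannot be told apart.

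Of the 11 probes, 7 were detected in at least 1 group (Crx, Rxrg, Neurod1, Neurod4, Onecut2, Ptf1a and Foxn4), compared with 60.7% of all probes. Detection of a group means detection on at least 2 of 3 or 3 of 4 of its arrays. The probes of Thrb and Onecut1 and both probes of Prdm1 were detected on 0 of 36 arrays. The signal of the Thrb probe ranged from 3.65 to 4.58 and that of the Onecut1 probe from 3.98 to 4.92. Those of the Prdm1 probes ranged from 3.16 to 4.84 and from 3.28 to 4.63. These probes gave no signal well above background at any stage, and no fold change is given for them. This does not show that the transcripts were absent. The brightest Pax6 probe was also detected on 0 of 36 arrays, although the paper names Pax6 among key transcription factors of eye development. Onecut2 was the one member detected on all 36 arrays. Rxrg and Foxn4 were each detected on 29 arrays, Neurod4 on 22, Neurod1 on 13, Ptf1a on 12 and Crx on 6.

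**Figure D1:**
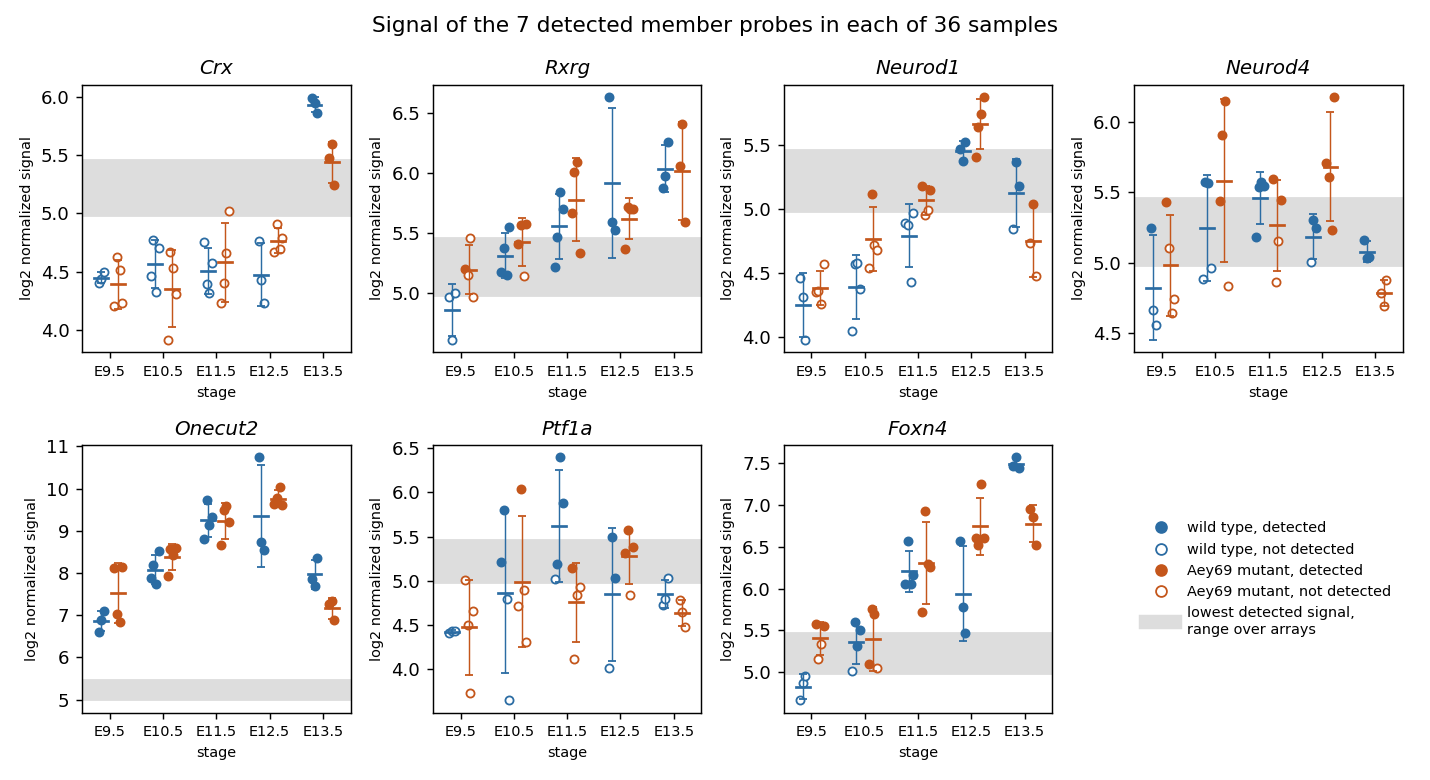
Log2 normalized signal (y axis) of the 7 detected member probes by stage (x axis) in 36 samples, wild type in blue and Aey69 mutant in orange, with each point a sample, filled where the probe was detected, and the bar and whiskers the mean and SD of a group. The Crx signal of all 6 E13.5 samples lies above that of every earlier sample, and the grey band marks the lowest detected signal, from 4.98 to 5.46 over the arrays.

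Crx was detected in the eye at E13.5 and in no other group. The control signals at E13.5 were 5.99, 5.95 and 5.86 and the mutant signals 5.48, 5.59 and 5.24, whereas the 30 samples of the earlier stages reached at most 5.02. All 3 mutant values lay below all 3 control values, which was so for 17.3% of all tested probes. Crx was not detected on any E12.5 array, so its rise from E12.5 to E13.5 is a bound. It was at least 1.79-fold in controls (limma adjusted p = 1.55e-06), at least 1.904-fold without E12.5 control 2, and at least 1.23-fold in mutants (limma adjusted p = 0.00538). A p-value beside a bound, here and below, tests the difference of the measured means and not the bound. The mutant mean at E13.5 was lower by 0.50 (1.41-fold, SE 0.125, 95% confidence interval -0.78 to -0.21), which did not pass the false discovery rate of 10% (limma adjusted p = 0.147). No difference between the rises of the genotypes is given, since their E12.5 values were not above background.

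The promoter of Crx is shown because Crx had the clearest onset among the members. RefSeq promoter windows of 300 bases (250 before and 50 after the transcription start, build GRCm38.p6) were found for 9 of the 10 genes. Searched on both strands, the motif GGATTA, whose reverse complement TAATCC is bound by homeodomain proteins of the Otx and Crx type, occurred 2 times in the Crx window, starting 94 and 21 bases before the start of transcription, and 1 time in 1 of the Thrb windows, 46 bases before the start. It was in none of the windows of the other matched members. GGATTA was present in 7.06% of 32851 promoter windows of mouse genes, and CANNTG, the E-box read by basic helix-loop-helix factors, in 72.3%. These letter matches describe the sequence and are not evidence of binding. The Crx window lies at chr7:15879906-15880205 on the minus strand, and capitals mark GGATTA.
Crx: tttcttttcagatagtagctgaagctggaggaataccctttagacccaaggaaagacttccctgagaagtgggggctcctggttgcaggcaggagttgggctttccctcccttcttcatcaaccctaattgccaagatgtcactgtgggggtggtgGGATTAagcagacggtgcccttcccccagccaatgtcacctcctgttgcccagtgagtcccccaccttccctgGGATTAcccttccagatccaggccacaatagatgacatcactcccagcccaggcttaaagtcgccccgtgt

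Foxn4 was the one member with a called difference between the genotypes. From the youngest stage to the oldest, its mean signal was 4.83, 5.35, 6.21, 5.94 and 7.50 in controls and 5.40, 5.40, 6.30, 6.75 and 6.78 in mutants. At E9.5 Foxn4 was detected on 0 of 3 control and 2 of 4 mutant arrays, so neither group passed detection and the genotypes were not compared there. The neighbouring mutant means at E12.5 and E13.5 differed by 0.03 (95% confidence interval -0.46 to 0.52). In the heads the 4 control values were 5.01, 5.60, 5.31 and 5.50 at E10.5 and 6.05, 6.56, 6.05 and 6.17 at E11.5, and the mutant values were 5.09, 5.76, 5.70 and 5.04, followed by 5.72, 6.93, 6.29 and 6.26. The control groups did not overlap between these stages, and 1 mutant sample at E11.5 lay below the highest at E10.5. The rise was 0.85 in controls (SE 0.224, limma adjusted p = 0.0176) and 0.90 in mutants (SE 0.224, limma adjusted p = 0.00642).

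At E12.5 the Foxn4 signals were 6.57, 5.78 and 5.46 in controls and 6.60, 6.53, 7.26 and 6.61 in mutants. Control 2 gave the highest control value, within the range of the mutants, and the other 2 controls lay below every mutant. The mutant mean was higher by 0.81 (SE 0.286, limma adjusted p = 0.427), and without control 2 by 1.12 (adjusted p = 0.00824). Without this control, 4745 of all probes were called at E12.5 in place of 68. At E13.5 the direction was the opposite. The signals were 7.47, 7.57 and 7.44 in controls and 6.95, 6.85 and 6.53 in mutants, without overlap, and the mutant mean was lower by 0.72 (1.64-fold, SE 0.137, limma adjusted p = 0.0938). This call was close to the threshold. Leaving out each of the 6 samples in turn gave an adjusted p from 0.0609 to 0.276 and kept the call only without control 4, while the difference itself stayed between -0.80 and -0.59.

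From E12.5 to E13.5 Foxn4 thus rose by 1.56 in controls (2.94-fold, SE 0.259, limma adjusted p = 7.84e-05), or by 1.87 without E12.5 control 2 (adjusted p = 1.1e-05), whereas the mutant change was 0.03 (SE 0.242, limma adjusted p = 0.957). The difference between these changes was -1.53 (SE 0.355, 95% confidence interval -2.25 to -0.80, limma adjusted p = 0.0248), and -1.84 without E12.5 control 2 (adjusted p = 0.00235), where 1889 of all probes were called in place of 391. Without mutant 5 of E13.5 it was -1.40 and just missed the threshold (adjusted p = 0.1004). The Foxn4 window at chr5:114273712-114274011, minus strand, is shown beside that of Crx because both genes rose in the control eye at E13.5. Neither GGATTA nor CANNTG occurred in it on either strand, so that it holds no capitals.
Foxn4: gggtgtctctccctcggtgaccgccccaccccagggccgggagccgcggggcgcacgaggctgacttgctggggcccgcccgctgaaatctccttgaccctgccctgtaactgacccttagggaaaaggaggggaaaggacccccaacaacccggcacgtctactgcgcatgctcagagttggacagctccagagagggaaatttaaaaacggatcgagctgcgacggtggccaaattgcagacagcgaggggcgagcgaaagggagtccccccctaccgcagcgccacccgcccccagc

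Onecut2 was detected in every sample. In the order of the stages they were 6.86, 8.08, 9.25, 9.34 and 7.97 in controls and 7.53, 8.38, 9.23, 9.76 and 7.16 in mutants. The mutant mean was highest at E12.5, and the highest control mean depended on E12.5 control 2, without which the E12.5 mean was 8.65, below that at E11.5. The step from E11.5 to E12.5 was not called in either genotype. In the heads the control values were 7.88, 8.20, 7.73 and 8.51 at E10.5 and 8.80, 9.74, 9.13 and 9.33 at E11.5, without overlap. The rise was 1.17 in controls (SE 0.335, limma adjusted p = 0.0313) and 0.86 in mutants (SE 0.335, limma adjusted p = 0.0895). The mutant values, 7.92, 8.56, 8.42 and 8.60 followed by 8.66, 9.49, 9.59 and 9.20, also did not overlap, but the mutant call was lost without any 1 of 6 of the 8 samples (adjusted p up to 0.252), and the control call without control 4 of E10.5 (adjusted p = 0.117) or control 3 of E11.5 (adjusted p = 0.141).

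At E12.5 the Onecut2 signals were 10.74, 8.74 and 8.56 in controls and 9.63, 9.78, 10.03 and 9.61 in mutants. Control 2 was the highest of the 7 samples and the other 2 controls were the lowest. With it, the mutant mean was higher by 0.42 (SE 0.470, limma adjusted p = 0.853), and without it by 1.12 (adjusted p = 0.00364). At E13.5 the signals were 7.86, 7.68 and 8.36 in controls and 7.27, 7.33 and 6.89 in mutants, without overlap. The mutant mean was lower by 0.80 (1.75-fold, SE 0.199, 95% confidence interval -1.27 to -0.35), which did not pass the threshold (limma adjusted p = 0.142). The fall from E12.5 to E13.5 was -1.38 in controls (SE 0.386, limma adjusted p = 0.0171) and -2.60 in mutants (6.07-fold, SE 0.362, limma adjusted p = 2.08e-06). Without control 2 the control change was -0.68 (adjusted p = 0.224), and the difference between the genotypes' changes went from -1.22 (adjusted p = 0.343) to -1.92 (adjusted p = 0.0156).

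Neurod1 was detected mainly in the eye region at E12.5. Its signals there were 5.47, 5.38 and 5.53 in controls and 5.41, 5.64, 5.74 and 5.88 in mutants, and the genotypes overlapped (difference 0.21, SE 0.153, limma adjusted p = 0.731). None of the 4 control head arrays at E11.5 had detected it, so the rise in controls was a bound of at least 1.31-fold (limma adjusted p = 0.0132), or at least 1.30-fold without E12.5 control 2 (adjusted p = 0.0551). In mutants, where 2 of 4 arrays at E11.5 detected it, the rise was 0.60 in mutants (SE 0.156, limma adjusted p = 0.0218). At E13.5, when 2 of 3 control and 1 of 3 mutant arrays detected it, the signals were 4.84, 5.37 and 5.18 in controls and 4.74, 5.04 and 4.48 in mutants, with overlap. The mutant signal fell by 0.92 from E12.5 (SE 0.168, limma adjusted p = 0.000126), and the control change was -0.33 (SE 0.180, limma adjusted p = 0.297). The difference between these changes was -0.59 (SE 0.246) and did not pass the threshold (limma adjusted p = 0.318).

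Neurod4 followed a similar course at E12.5 and E13.5. In the E10.5 heads it was detected on 2 of 4 control and 3 of 4 mutant arrays, at means of 5.25 and 5.58. In the E11.5 heads it was detected on 4 of 4 control and 2 of 4 mutant arrays, at means of 5.46 and 5.26. The genotype difference was called at neither age. At E12.5 the signals were 5.01, 5.30 and 5.25 in controls and 5.70, 5.61, 5.24 and 6.17 in mutants, and the mutant mean was higher by 0.49 (SE 0.220, limma adjusted p = 0.534), or by 0.41 without control 2 (adjusted p = 0.269). At E13.5 the controls gave 5.16, 5.03 and 5.04, all detected, and the mutants 4.78, 4.69 and 4.88, none detected. The groups did not overlap, and the mutant signal was at least 1.05-fold lower (limma adjusted p = 0.256). From E12.5 it fell at least 1.59-fold in mutants (limma adjusted p = 0.00954), whereas the control change was -0.11 (SE 0.267, limma adjusted p = 0.876).

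Ptf1a varied widely between samples of a group, and none of its tested differences was called. In the E10.5 heads it ranged from 3.65 to 5.81 in controls and from 4.31 to 6.04 in mutants. At E11.5 the controls gave 5.02, 5.19, 6.40 and 5.88 and the mutants 5.15, 4.12, 4.84 and 4.93, so that 1 mutant lay within the control range, and the probe was detected on 3 of 4 control and 1 of 4 mutant arrays. The mutant mean was lower by 0.87 (SE 0.312, limma adjusted p = 0.658). At E12.5 the controls gave 4.02, 5.49 and 5.04 and the mutants 5.32, 5.57, 4.84 and 5.38, a difference of 0.43 (SE 0.334, limma adjusted p = 0.758) that was 0.01 without control 2. Ptf1a was not detected in either group at E13.5, the stage at which Foxn4 was highest in controls.

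Rxrg, a retinoid receptor gene, had no called difference. The group means went from 4.86 at E9.5 to 6.04 at E13.5 in controls and from 5.20 to 6.02 in mutants, and none of the tested steps was called. At E9.5 Rxrg was detected on 0 of 3 control and 1 of 4 mutant arrays and passed detection in neither group. At E13.5 the controls gave 5.88, 5.98 and 6.26 and the mutants 6.06, 6.41 and 5.59, and the difference of -0.02 had a 95% confidence interval from -0.50 to 0.47. At E12.5 control 2 gave 6.64 against 5.59 and 5.53 in the other controls, and the mutants gave 5.37, 5.72, 5.70 and 5.70. The difference of -0.30 (SE 0.270, limma adjusted p = 0.804) became 0.063 without control 2.

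Between the genotypes, no member was called before E13.5 in limma, with 1 member probe tested in the whole embryos, 4 and 5 in the heads and 6 in the eye region, and 1 of 6 (Foxn4, lower) was called in the E13.5 eye. A call means an adjusted p under 0.1 in limma and detection in a group compared. In the order of the stages the called shares of all tested probes were 0%, 0%, 0.0759%, 0.489% and 1.61%, and 1.15% were called lower in the E13.5 eye. At an unadjusted p under 0.05 the member counts were 0, 0, 1 (Ptf1a, lower), 1 (Foxn4, higher) and 4 (Crx, Neurod4, Onecut2 and Foxn4, all lower), beside 10.6%, 1.12%, 9.57%, 14.3% and 22.5% of all tested probes, and 10.9% were lower in the E13.5 eye. At E13.5 the groups did not overlap for 4 of the 6 tested members, all lower, beside 31.3% of all tested probes, and 17.3% that were lower. Ptf1a and Neurod4 at E11.5 and Neurod1 and Neurod4 at E13.5 passed detection only in controls, and Neurod4 at E10.5 only in mutants. Each mean was higher in the group that passed, so the place of these members in these counts is not independent of the direction. The plot of genotype differences shows the intervals of the members at E12.5 and at E13.5.

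**Figure D2:**
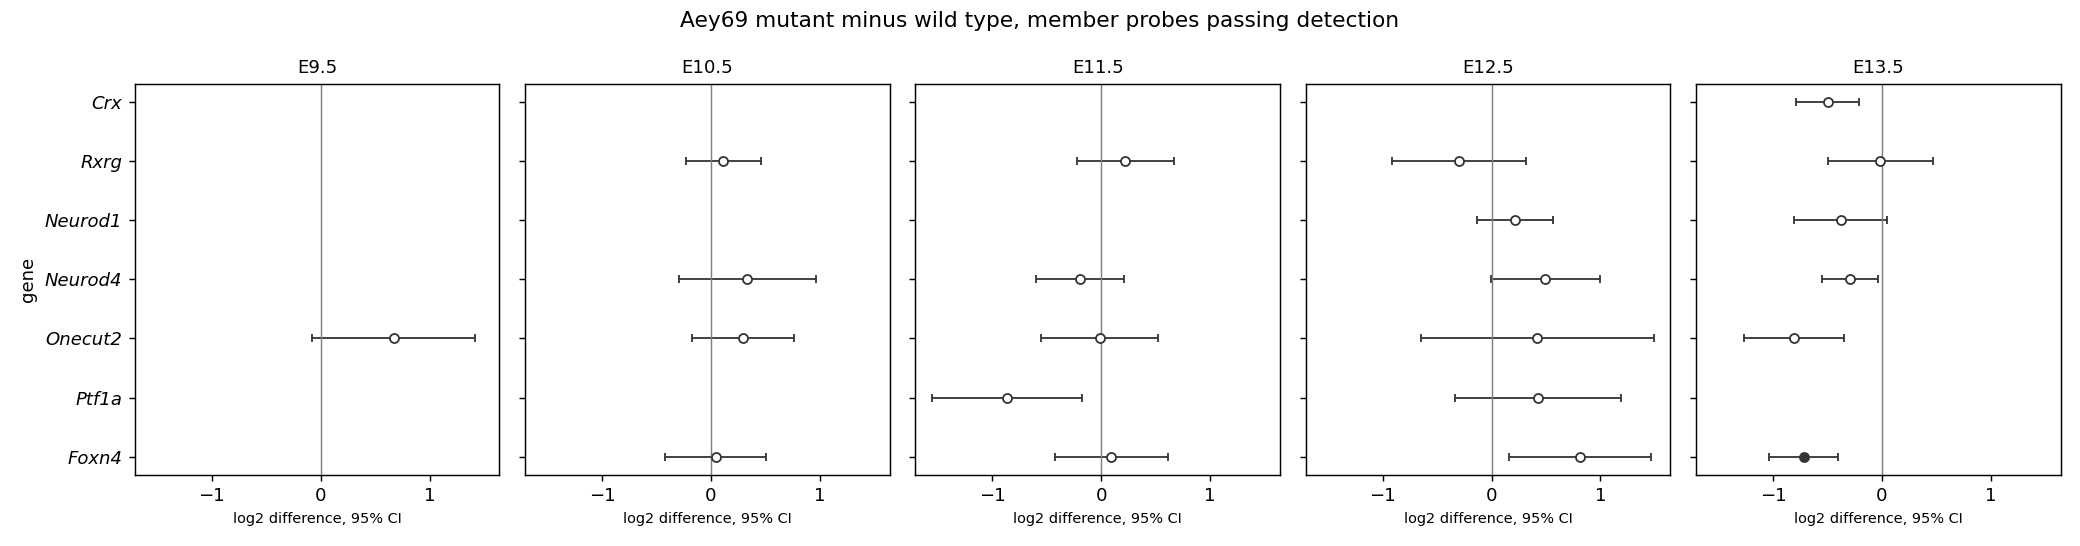
Log2 difference of Aey69 mutant minus wild type (x axis, point) with its 95% confidence interval (bar) for member probes that passed detection (y axis), in 1 panel for each stage, filled where called. The single filled point is Foxn4 at E13.5 (-0.72), and the E13.5 intervals of Crx and Onecut2 also lie below 0. Neurod4 at E13.5 was not detected in mutants, so its point is set against background.

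Along the time course, 2 of 5 tested member probes in controls and 2 of 4 in mutants were called between the E10.5 and E11.5 heads, in each case Onecut2 and Foxn4, both higher, where 13.4% and 31% of all tested probes were called and 7.53% and 16.9% were called higher. Between the heads, 2 members in controls and 1 in mutants had stages that did not overlap, all higher, beside 8.87% and 11.9% of all tested probes. From E11.5 to E12.5, 1 of 6 was called in either genotype (Neurod1, higher), with 16.3% and 11.1% of all probes called. From E12.5 to E13.5, 3 of 7 were called in controls (Crx and Foxn4 higher, Onecut2 lower) and 4 of 7 in mutants (Crx higher, Neurod1, Neurod4 and Onecut2 lower), with 23% and 41.5% of all probes called. Among these called members, Crx passed detection only at E13.5, and Neurod1 and Neurod4 in mutants only at E12.5. In the step from E11.5, Neurod1 passed only at E12.5. The place of these members in the step counts is thus not independent of the direction. The change of the genotype difference was called for 0 of 5 members between E10.5 and E11.5, for 0 of 6 between E11.5 and E12.5 and for 1 of 7 (Foxn4) between E12.5 and E13.5, with 0.00721%, 0.712% and 2.6% of all probes called. At an unadjusted p under 0.05 these counts were 0, 2 (Ptf1a and Foxn4, higher) and 5 (Crx, Neurod1, Neurod4, Onecut2 and Foxn4, lower), beside 5.01%, 8.92% and 17.4% of all probes. Of the last 5, Crx at E12.5 and Neurod4 in mutants at E13.5 were not above background. The stage steps within a genotype and the changes of the genotype difference share their samples, so the plot of stage steps shows the values of each genotype side by side.

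**Figure D3:**
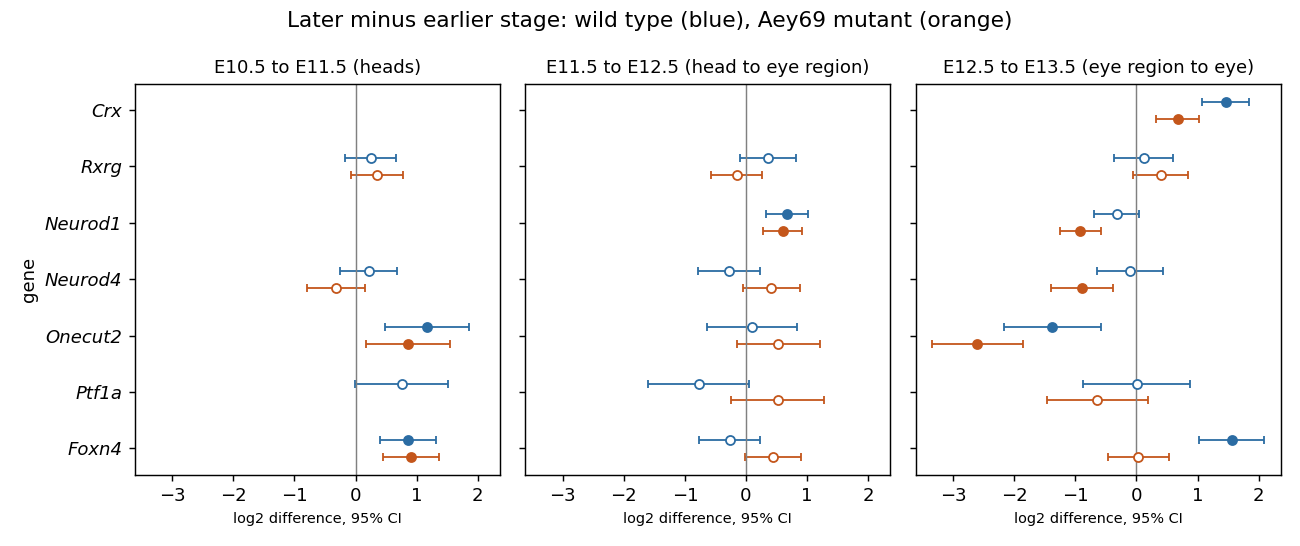
Log2 difference between consecutive stages (x axis, later minus earlier, point) with its 95% confidence interval (bar) for member probes that passed detection (y axis), wild type in blue and Aey69 mutant in orange, filled where called. In the panel from E12.5 to E13.5 Foxn4 is at 1.56 in wild type and 0.03 in mutants, and Onecut2 is at -1.38 and -2.60. The points of Crx in that panel are set against an E12.5 signal not above background. In the same panel both points of Ptf1a and the mutant point of Neurod4 are set against E13.5 signals not detected on any array. The wild-type point of Neurod1 from E11.5 to E12.5 is set against E11.5 arrays that did not detect it.

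Other genes of the same cell types were measured with lists of genes. Of the photoreceptor list 11 of the 24 genes on the array were tested at E13.5 and 0 were called (limma). At an unadjusted p under 0.05, 4 were lower and 0 higher, beside 10.9% and 11.6% of all tested probes. The list had a median difference of -0.09, beside -0.05 over all genes tested. Its genes with the smallest p were Rorb (-0.37, adjusted p = 0.181) and Rbp3, which encodes a retinoid-binding protein of photoreceptors and was detected on 2 of 3 control and 0 of 3 mutant arrays (at least 1.03-fold lower, adjusted p = 0.183). Nrl, the rod determinant, was detected on 0 of 36 arrays. Of the horizontal and amacrine list 15 genes were tested at E13.5 and 1 was called: Prox1, a homeobox gene of horizontal cells that the lens also expresses, was lower by 1.72 (SE 0.179, adjusted p = 0.0088). Of the 16 tested proneural and neurogenic genes 1 was called, Insm1 (-1.16, SE 0.227, adjusted p = 0.0973), a zinc finger gene of newly formed neurons. In all, 8 of these 16 were lower at an unadjusted p under 0.05 and the list median was -0.58. Over all tested probes 1.15% were called lower at E13.5, and 10.9% were lower at an unadjusted p under 0.05. At E12.5 the proneural and neurogenic list had 0 of 19 called and 7 higher at an unadjusted p under 0.05, beside 7.98% of all tested probes. Its median was 0.38, beside 0.04 over all genes. Without E12.5 control 2, 7 of the 19 were called higher and 2 lower, with a median of 0.26, where 17.2% of all tested probes were called higher and 17.4% lower. In the whole embryos and in the heads of both ages none of the 3 lists had a called gene in limma. From the youngest of these stages to the oldest, 8, 0 and 4 genes in all had an unadjusted p under 0.05. The shares of all tested probes were 10.6%, 1.12% and 9.57%. Tested genes numbered 7, 7 and 8 in the photoreceptor list and 14, 15 and 17 in the horizontal and amacrine list. The proneural and neurogenic list had 15, 15 and 16 tested.

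Between E12.5 and E13.5 the horizontal and amacrine list fell along with Onecut2: 11 of 18 tested genes were called lower in controls and 12 in mutants, with 0 and 1 called higher, and medians of -1.10 and -1.08. Of the proneural list, 8 of 19 were called lower in controls and 16 of 18 in mutants, with 1 called higher in either genotype. Over all tested probes 10.4% were called lower in controls and 21.7% in mutants. Without E12.5 control 2 the control counts of lower genes were 12 and 11 for these 2 lists. The photoreceptor list had 3 of 11 called higher and 2 lower in controls, and 1 higher and 3 lower in mutants. The tissue dissected changed at this step, and the markers of brain and olfactory epithelium changed with it. Their summed normalized signal ranged from 3278 to 4175 over the 7 samples at E12.5 and from 811 to 1532 over the 6 samples at E13.5.

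Markers of other cell types differed between the genotypes at E13.5 beside the member genes. The summed signal of the lens list was 98562 to 132328 in controls and 550 to 586 in mutants. Beside 1.15% of all tested probes, 13 of its 15 tested genes were called lower. Among them were the crystallin genes Cryba2, Crygd and Cryba1, detected on 0 of 3 mutant arrays and at least 473-fold, 383-fold and 478-fold lower, and Crybb3, detected on 2 of 3 (-8.69). Cryaa was detected on 2 of 3 mutant arrays at a mean of 5.01. Of 13 tested retinal progenitor genes 1 was called, Hes5, a Notch effector (-0.93, adjusted p = 0.0934). At an unadjusted p under 0.05, 8 were lower, beside 10.9% of all tested probes. The summed progenitor signal was 10807 to 11738 in controls and 8851 to 9098 in mutants. The summed signal of periocular mesenchyme and muscle genes was 15896 to 17039 in controls and 20163 to 24588 in mutants, with 0 of 14 genes called. That of 10 tested retinal pigment epithelium genes, 0 of which were called, was 4294 to 5456 in controls and 2980 to 3136 in mutants. The summed levels of these 4 lists did not overlap between genotypes at E13.5, and their part in the lower Foxn4, Crx, Onecut2 and Neurod4 signals was not tested. At E12.5 the summed signal of the brain list overlapped between genotypes (3491 to 3981 in controls and 3278 to 4175 in mutants). Of its 13 tested genes 1 was called higher in mutants, Hoxb1 (limma adjusted p = 0.0438), detected on 0 of 3 control and 4 of 4 mutant arrays. At an unadjusted p under 0.05, 6 were higher and 2 lower, beside 7.98% and 6.31% of all tested probes. The mesenchyme list was 7621 to 10732 in controls and 2728 to 4004 in mutants. Of its 13 tested genes 4 were called lower, and the lens list had 9 of 12 called lower, beside 0.425% of all tested probes. Without control 2 the mesenchyme and lens lists had 9 and 10 called lower, and the brain list had 3 called higher and 3 lower. In that setting 17.2% of all tested probes were called higher and 17.4% lower. In the retinal progenitor list 1 of 13 genes was called at E12.5, Lhx2, a LIM homeobox gene (-1.05, adjusted p = 0.0662). The part of these differences in the E12.5 values of Foxn4 and Onecut2 was not tested.

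Over the 36 samples, the probes whose signal was most like that of each detected member were listed by Pearson's r as a description. All points share stage and tissue, which sets much of any such r. For Crx they were Tyrp1, a pigment cell gene (r = 0.906), Slc11a1 (0.906) and Dkk3 (0.892). For Foxn4 they were Npr2 (0.930), Crhbp (0.909) and Aifm2 (0.903), and for Onecut2 they were Trp53i11 (0.959), Cux2 (0.955) and the neuronal RNA-binding protein gene Elavl3 (0.947). For Neurod1 they were Klc1 (0.930), Lrrc49 (0.888) and Elavl4 (0.885), and for Neurod4 Isl1 (0.755), Tdrkh (0.723) and Ankrd6 (0.719). For Rxrg they were Xpnpep2 (0.881), Fndc10 (0.879) and Ntn3 (0.868), and for Ptf1a Fgf13 (0.800), Sqle (0.799) and Rb1 (0.776). After the group means were subtracted, the r of Crx with Tyrp1 was 0.259 and that of Onecut2 with Trp53i11 was 0.891.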

How the data were processed

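Total RNA of the 40 samples was amplified and hybridized by the authors to Illumina MouseRef-8 v2.0 expression arrays. The deposited intensity values are background-subtracted signals on a linear scale, not yet normalized (range -21 to 28964), and the deposited detection p-value of each probe accompanies them. A second deposited table holds intensity values after the authors' offset and quantile normalization, and was used as an alternative. Of the 40 arrays, 4 were excluded by the authors (for quality or atypical marker expression) and were left out here except in an alternative. An offset of 22 was added, arrays were quantile-normalized and log2 was taken. Genotypes were compared per stage, and stages in one model of 10 groups, with limma 3.58.1 (lmFit and eBayes, two-sided) in R 4.3.3. P-values were adjusted by Benjamini-Hochberg over all 25697 probes, and a call needed a false discovery rate under 10% and detection (p under 0.05 on at least 2 of 3 or 3 of 4 arrays) in a group compared. Samples are labelled as biological replicates, and precision is limited by how many arrays there are. A probe not detected on any array of a group has only a bound there: the brighter group's mean was divided by the higher of the array's lowest detected signal and the probe's own. The bound itself was not tested, and the p-value printed beside it is that of the limma difference of the measured signals. The confidence intervals are those of limma with moderated degrees of freedom. Figures were drawn with matplotlib.

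Probes were named from the platform annotation, in which 23978 probes have 1 gene and 1719 have none. The member genes and the gene lists were chosen with earlier results of these data known. All member probes are described. From each list the called genes with the largest change per stage are named (up to 4), or those with the smallest p (up to 2) as values, and other genes are named only as markers of the tissue. The fits were tested on simulated data. Alternatives were the offset, the scaling, the detection filter, and the authors' normalized values with and without the replicate number as a block. Others were one model for all stages, a gradient score as covariate, the excluded samples and each sample left out. The gradient score places a sample on the first axis of the within-group deviations of the other stages. What this axis reflects was not tested. Its lowest score was that of E12.5 control 2 (-58.6, median deposited signal 8). The highest was that of E12.5 control 5 (45.9, median 23). The gene lists without E12.5 control 2 were added after seeing the data.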

Additional observations from a re-analysis of the deposited data

Results flagged for a closer look

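Dixon's test was run on 22 combinations of a member probe and a group, over the same 6 groups of 4 samples, and 3 of them held a sample far from the other 3. Chance gives this in about 1 of 20 tests, and the combinations share samples. Rxrg was at 5.37 in mutant 1 of E12.5 and between 5.70 and 5.72 in the others. Neurod4 was at 5.19 in control 2 of E11.5, where the others lay between 5.54 and 5.57. Foxn4 was at 7.26 in mutant 4 of E12.5 and between 6.53 and 6.61 in the others. The genotypes differed in the Foxn4 change from E12.5 to E13.5 by -1.53 (limma adjusted p = 0.0248).

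The 4 samples that the authors excluded enter no comparison of the report, and their values below come from all 40 arrays normalized together. In the excluded E13.5 control, Crx was at 9.02 (5.81 to 5.94 in the kept controls), Neurod1 at 7.92 (4.82 to 5.33) and Foxn4 at 8.04 (7.37 to 7.51), and 26.2% of the probes were detected on this array. In the excluded E13.5 mutant, with 44.0% detected, Crx was at 6.87, Rxrg at 6.77 (5.83 to 6.20 in the kept controls) and Foxn4 at 7.54. In the excluded E12.5 control, with 52.6% detected, Neurod4 was at 5.28 (4.98 to 5.27 in the kept controls).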

How the results depend on the processing

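The count of called members at E13.5 between the genotypes was 1. It was 2 with an offset of 100 (Crx and Foxn4), 3 with the detection filter before the fit (also Onecut2), and 0 in one model of 10 groups, with the gradient covariate or with the excluded samples. In the authors' normalized values it was 1 without the replicate number as a block and 0 with the block (Foxn4 -0.72, adjusted p = 0.252). The gradient scores separate the genotypes at E13.5 (9.04 to 16.6 in mutants, -24.4 to 1.83 in controls). At E12.5 the count was 0, and 3 with the gradient covariate (Foxn4 0.65, Ptf1a 0.61 and Rxrg -0.45). The change of the genotype difference to E13.5 had 1, and 2 with an offset of 100 or the filter before the fit, and 0 with the excluded samples.

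Between the heads, the mutant count of 2 was 1 with arrays scaled to a common median and 1 with the excluded samples, and the control count of 2 was 0 with the latter. From E11.5 to E12.5 the count of 1 was 0 in mutants under median scaling, and 0 in both genotypes with the excluded samples. From E12.5 to E13.5 the mutant count of 4 was 2 with the excluded samples, which also turned the Onecut2 genotype difference at E13.5 to 0.27 (adjusted p = 0.928). The cause was not tested.

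Leaving out 1 sample gave 0 to 2 calls between the genotypes at E12.5 and at E13.5, and 0 to 0 at the earlier stages. Between the heads it gave 1 to 2 in controls and 1 to 3 in mutants, to E12.5 1 to 1 in either, and to E13.5 2 to 3 and 4 to 5. For the change to E13.5 it gave 0 to 3, the 3 without control 2 of E12.5 (Crx, not above background at E12.5, Onecut2 and Foxn4), and 0 to 0 for the earlier changes. The Rxrg difference at E12.5 went from -0.49 to 0.063 over the samples left out, the latter without control 2.

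Over all probes, calls between the genotypes at E12.5 (68) and E13.5 (232) were 288 and 923 with an offset of 100, 45 and 374 under median scaling, 4 and 42 with the replicate block, 522 and 143 in one model, 2605 and 21 with the gradient covariate, 6 and 10 with the excluded samples, and 1197 at E13.5 with the filter before the fit. Leaving out 1 sample gave 12 to 4745 and 46 to 1817. For the change to E13.5, 391 became 649 with an offset of 100, 638 with the filter first and 48 with the excluded samples. For the control step to E12.5, 2277 became 1352 under median scaling and 36 with the excluded samples. Median scaling moved the median gene at E9.5 by -0.33. In the authors' normalized values, same-numbered samples of the genotypes had deviations correlated from -0.517 to 0.753, over 0.1 in 7 of 17 pairs. All of those 7 were at E9.5 to E11.5. The paper describes the controls as littermates, but the sample numbers need not follow litters. Whether the samples were paired is therefore not settled, and the genotypes were compared unpaired. Signals near the lowest detected signal, as those of Neurod4 and Ptf1a, limit what can be seen.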
